A study of Mus musculus with 15 samples.

Results

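Keratins are the intermediate filament proteins of epithelia, and keratin-associated proteins (Krtap) cross-link them in hair. The genes described here are all mouse genes whose symbol is Krt or Krtap followed directly by a digit, each read from the Affymetrix mouse probe set that carries only its symbol and has the highest mean over the 15 arrays. This gave 86 genes, 48 Krt and 38 Krtap, of 18193 genes with such a probe set. They were divided by the tissue in which each is known to be made into 6 ductal, 3 epidermal basal, 4 epidermal suprabasal, 4 stress-inducible, 9 other stratified, 8 inner root sheath and companion layer, 12 hair shaft and 38 Krtap genes, with 2 others.

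The tumors were grown under the skin of C57BL/6-Ly5.1 mice, which the labels give as 6 to 12 weeks old, from PDA30364 cells, a mouse pancreatic ductal adenocarcinoma (PDA) line, injected with Matrigel. All mice received a vehicle or inhibitor and an antibody. Control mice received the MCT vehicle and control IgG (n = 4), CD40 Ab mice vehicle and the agonist antibody (Ab) against CD40 (n = 4), MEKi mice the MEK inhibitor GDC-0623 at 30 mg/kg daily and control IgG (n = 3), and combination mice GDC-0623 and anti-CD40 (n = 4). Antibody injections fell on days 3, 5 and 7 of treatment, with a last one 1 day before tumors were analyzed, at 26 days after inoculation. Each array held RNA of a piece of 1 whole tumor of 1 mouse, all tumors came from the same cell line, and fewer cells of a type and less RNA per cell cannot be told apart in such pieces.

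Keratins form filaments as pairs of a type I (acidic) and a type II (basic) protein. Krt8 and Krt18 pair in simple epithelia such as pancreatic ducts, where Krt7 and Krt19 are also made and serve as markers of ductal cancer. Basal keratinocytes make Krt5 and Krt14, cells above them switch to Krt1 and Krt10, and wounded or rapidly growing epidermis makes Krt6, Krt16 and Krt17. The hair follicle has its own set: keratins of the inner root sheath, hard keratins of the hair shaft, and the Krtap proteins, which are rich in cysteine or in glycine and tyrosine.

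Of the 86 genes, 68 have an entry in the RefSeq table of promoters used here (build GRCm38.p6). The 5 stretches printed here are the 150 bases before the start of transcription, 5' to 3' on the gene's own strand. They belong to hair follicle genes of 3 classes, each higher in every MEKi array than in any other array, and to the ductal gene Krt23, which was lowest in combination tumors. The genes printed are not a ranking, since Krt35 rose more than Krt31 within the hair shaft class. Capitals mark the TATA box letters TATAAA and the letters CTTTGT, a core recognized by LEF1 and TCF proteins, both searched on both strands. All 5 genes lie on the minus strand.
Krt25 (chr11:99322952-99323101): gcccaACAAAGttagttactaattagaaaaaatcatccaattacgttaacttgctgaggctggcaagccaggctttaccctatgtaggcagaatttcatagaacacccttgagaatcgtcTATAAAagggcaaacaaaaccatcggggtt
Krt31 (chr11:100050552-100050701): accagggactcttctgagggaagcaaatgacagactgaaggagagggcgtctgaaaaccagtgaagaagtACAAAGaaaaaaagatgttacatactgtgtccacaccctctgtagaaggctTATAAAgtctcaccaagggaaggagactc
Krtap8-1 (chr16:89487953-89488102): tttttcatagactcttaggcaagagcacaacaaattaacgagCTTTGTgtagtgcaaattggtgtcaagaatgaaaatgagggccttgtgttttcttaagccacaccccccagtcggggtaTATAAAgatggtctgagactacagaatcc
Krtap16-3 (chr16:88962874-88963023): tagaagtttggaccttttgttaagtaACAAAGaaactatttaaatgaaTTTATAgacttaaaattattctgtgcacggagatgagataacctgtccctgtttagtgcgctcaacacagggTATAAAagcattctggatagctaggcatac
Krt23 (chr11:99493121-99493270): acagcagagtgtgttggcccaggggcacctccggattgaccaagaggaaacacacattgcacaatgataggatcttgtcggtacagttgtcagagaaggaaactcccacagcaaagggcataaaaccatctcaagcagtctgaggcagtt

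The 4 hair follicle genes held TATAAA at position -30 or -29 from the start, where it is most often found in the whole table, and CTTTGT between -145 and -80. Within 250 bases before the start, TATAAA was found in 7 of 8 inner root sheath, 5 of 7 hair shaft and 28 of 36 Krtap promoters, compared with 12.4% of all 32851 promoters in the table. It was found in 1 of 5 ductal and 0 of 2 epidermal basal promoters. CTTTGT or its relative CTTTGA was found in 20 of 36 Krtap, 4 of 7 hair shaft and 2 of 8 inner root sheath promoters, compared with 27.6% of all. The LEF1 and TCF core, counted without that relative, was found in 14 of 36 Krtap promoters, compared with 16.5% of all. It was found in only 1 of 7 hair shaft and 1 of 8 inner root sheath promoters, those of Krt31 and Krt25. The core or its relative was found in 1 of 5 ductal and 0 of 2 epidermal basal promoters. Overlaps between motifs were not removed. These are matches of letters, and binding was not measured.

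The arrays had near-equal signal ranges, with medians of 5.16 to 5.24 and lower quartiles of 3.54 to 3.62 on the log2 scale of the deposited values. Levels of about 3.6 or less therefore lie at or under the lower quartile of probe sets, and 31 of the 86 genes had a mean level under 4. The mice carried numbers under 10000 (lower series) or from 10000 on (upper series): all 3 MEKi mice were of the upper series and all 4 combination mice of the lower. Among the controls 3 were of the lower series and 1 of the upper, and CD40 Ab mice were split 2 and 2. Control replicate 4, the only control of the upper series, stood apart from the other controls in the hair follicle genes.

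**Figure D1:**
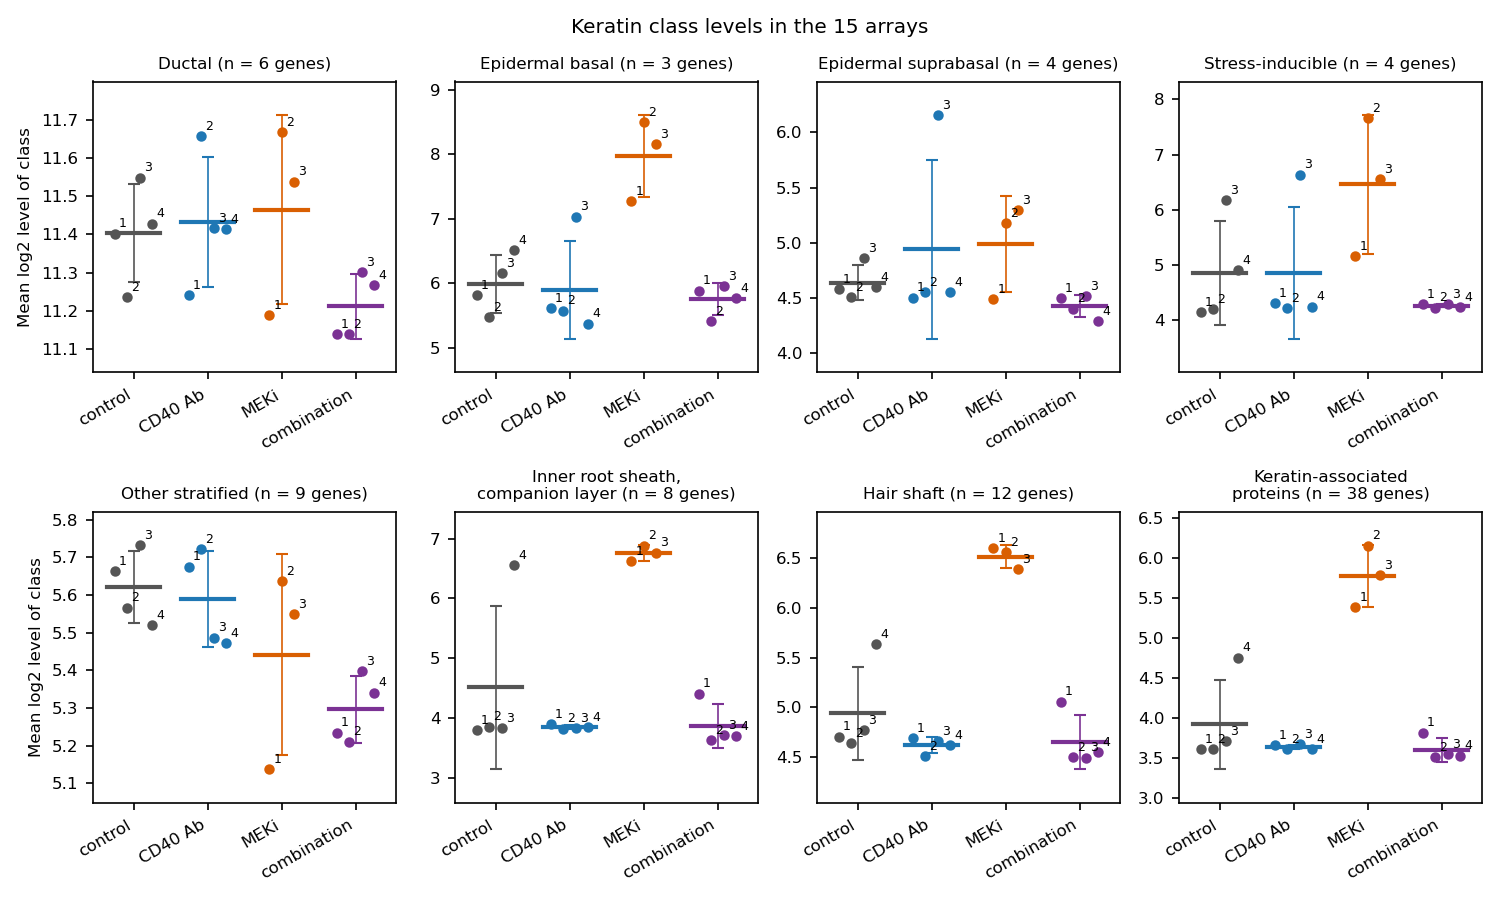
Mean log2 level of each keratin class (y axes, with separate scales) in each of the 15 arrays by treatment group, with numbered points for replicates, a bar for the group mean and whiskers of 1 SD. The inner root sheath level of control replicate 4 (6.56) lay near those of the MEKi arrays (6.62 to 6.89), and the suprabasal level was highest in CD40 Ab replicate 3 (6.16).

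The ductal keratins were detected in every array, with class levels of 11.40 ± 0.13 (SD, n = 4) in control, 11.43 ± 0.17 (n = 4) in CD40 Ab, 11.46 ± 0.25 (n = 3) in MEKi and 11.21 ± 0.08 (n = 4) in combination tumors. Krt19, a type I keratin of ducts, ranged over the 15 arrays by 0.54, Krt18 by 0.52 and Krt8 by 0.48 on the log2 scale. Their levels lay between 12.06 and 13.59 in every array. In MEKi tumors Krt19 was 13.20, 13.59 and 13.46, overlapping the controls at 13.13, 13.05, 13.23 and 13.09, and the difference was 0.29 (95% interval 0.05 to 0.53, adjusted p = 0.0959). Krt8 differed by 0.22 (-0.03 to 0.47, adjusted p = 0.21), Krt18 by 0.10 (-0.19 to 0.39, adjusted p = 0.639) and Krt7 by 0.39 (0.12 to 0.67, adjusted p = 0.0618). With array weights both Krt7 (adjusted p = 0.0137) and Krt19 (0.0312) passed. Without MEKi replicate 1, Krt7 (0.54, adjusted p = 0.00368), Krt8 (0.345, 0.0244) and Krt19 (0.40, 0.0158) passed. Krt19 also passed in the fit of all 15 arrays (0.0305). Krt7 also passed with a trended robust prior (0.0397) and with the mean of a gene's probe sets (0.0495). In combination against control tumors these 4 genes differed by -0.18 (Krt18) to 0.14 (Krt7), with intervals that lay within -0.34 and 0.31 and adjusted p from 0.134 to 0.511. Of the other markers fixed for ductal tumor cells, Cdh1 lay between 11.74 and 12.19 in every array. Epcam varied more widely, at 6.67 to 9.11 in control and 7.02 to 9.94 in CD40 Ab tumors. It was higher than every control in MEKi (10.31, 11.42 and 11.08) and in combination tumors (9.76 to 10.48).

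Krt23, a type I keratin of simple epithelia, departed from the rest of its class. It stood at 9.27, 9.15, 9.53 and 9.24 in control and at 9.13, 9.34, 9.04 and 8.99 in CD40 Ab tumors. In MEKi tumors it was 8.07, 8.45 and 8.14, and in combination tumors 7.34, 7.58, 7.80 and 7.77. The 4 groups formed 3 levels, with control and CD40 Ab overlapping, MEKi below both and combination below MEKi in every array. Against control, Krt23 fell by 1.08 ± 0.12 (SE) in MEKi (adjusted p = 0.00131) and by 1.68 ± 0.12 in combination tumors (adjusted p = 8.66e-05), and it fell by 1.50 ± 0.12 in combination against CD40 Ab tumors (adjusted p = 0.000725). The further difference between combination and MEKi, -0.60 ± 0.14, did not pass (adjusted p = 0.069) with the arrays of the 2 groups alone and passed when all 15 arrays were fitted together (adjusted p = 0.0119). In CD40 Ab against control tumors the difference was -0.17 (95% interval -0.40 to 0.06, adjusted p = 0.633).

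Krt20, the keratin of intestinal and urothelial cells, was 9.81, 9.66, 9.78 and 9.85 in combination tumors and 9.31, 8.82, 9.59 and 9.38 in control. The groups did not overlap, and Krt20 rose by 0.50 ± 0.14 (adjusted p = 0.0444), the only member that rose in this comparison, although this call was lost without control replicate 1 (adjusted p = 0.0935), control replicate 4 (0.0671) or any 1 combination array (0.0661 to 0.0963), in the fit of all 15 arrays (0.144) and with median centring (0.0578). Of the 86 genes, 1 rose and 4 fell in combination against control, 1.16% and 4.65%, where 10.3% of all 18193 genes rose and 8.72% fell. Krt23 fell most. Krt13, a keratin of mucosal stratified epithelium, was 4.57, 4.81, 5.14 and 4.77 in combination tumors and 6.75, 5.82, 6.57 and 5.60 in control, a fall by 1.36 ± 0.25 (adjusted p = 0.00623). Krt79, a keratin of the upper hair follicle and sebaceous duct, fell by 0.84 ± 0.18 (adjusted p = 0.0152), from 8.14 to 8.79 in control to 7.18 to 8.01, a call that was lost in the fit of all 15 arrays (adjusted p = 0.0649). Krt36, a hard keratin of hair and tongue, fell by 0.69 ± 0.12 (adjusted p = 0.00598), from 5.61 to 6.06 to 4.99 to 5.34. Krt13 also fell in combination against CD40 Ab tumors, by 1.23 ± 0.25 (adjusted p = 0.0271). With Krt23 this made 2 of 86 genes down and 0 up in that comparison, against 2.52% and 3.69% of all genes. The Krt13 call was lost without CD40 Ab replicate 1 or 2 or combination replicate 1, 2 or 4 (adjusted p 0.0535 to 0.0714), which left 1 gene down, Krt23.

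**Figure D2:**
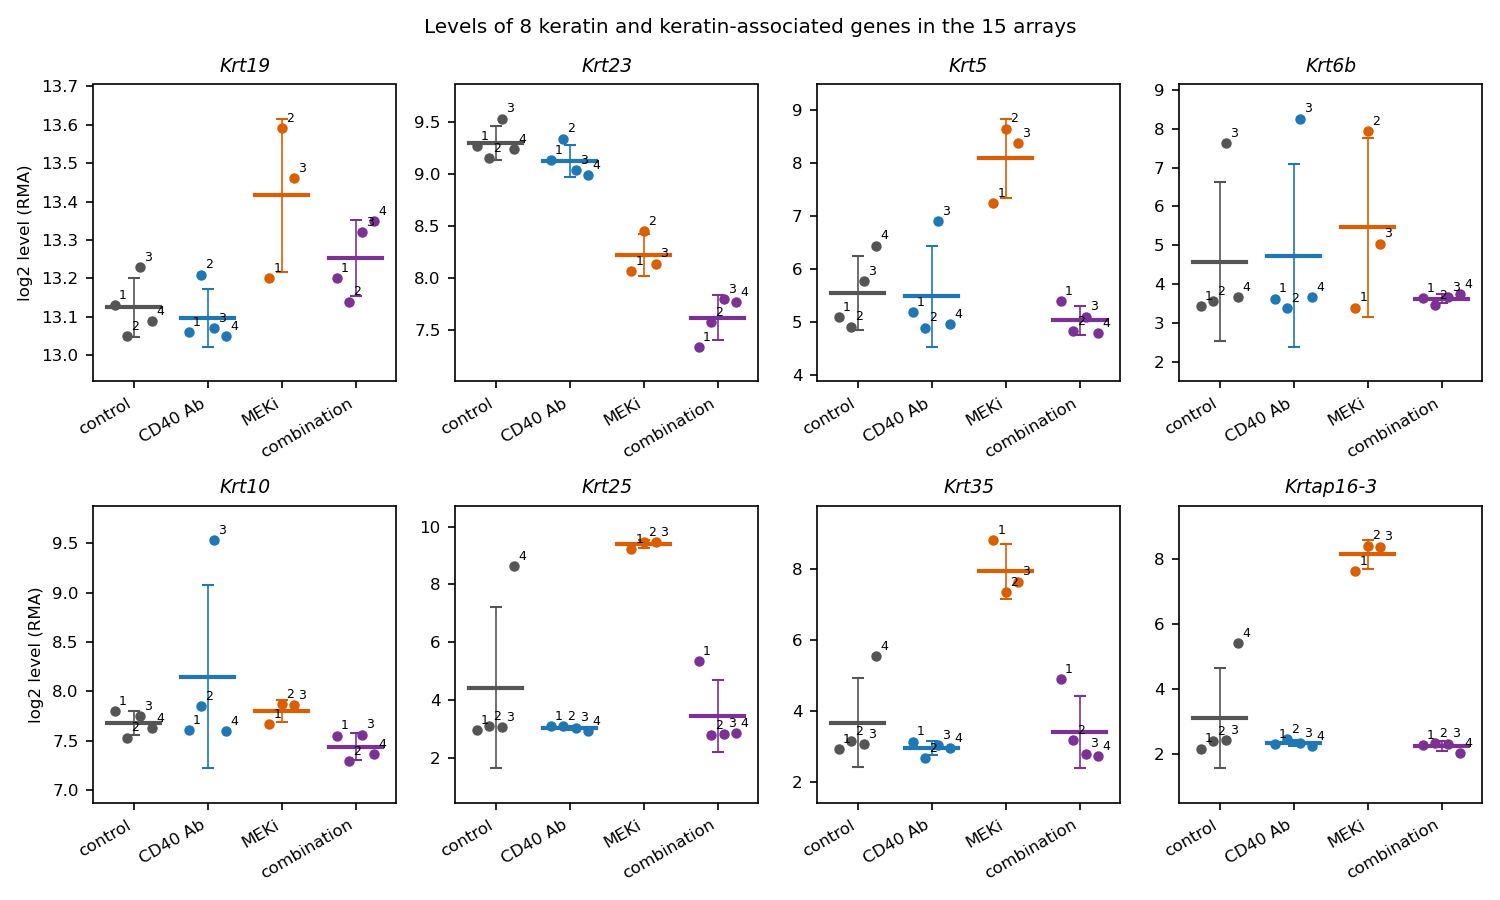
Log2 level (y axes, with separate scales) of 8 genes of different keratin classes in each array by group, with numbered replicates, group means and whiskers of 1 SD. Krt19 spanned 0.54 over all arrays, Krt23 fell from 9.15 to 9.53 in control to 7.34 to 7.80 in combination tumors, and Krt25 was 8.63 in control replicate 4 against 2.94 to 3.09 in the other controls.

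In MEKi against control tumors, 48 of the 86 genes rose and 1 fell, 55.8% and 1.16%, where 10.7% of all genes rose and 10.4% fell. The median log2 fold change (FC) of the 86 genes was 1.01, compared with -0.04 over all genes. In 43 genes every MEKi array lay above every control array, which held for 16.4% of all genes. The genes that rose were 3 of 3 epidermal basal, 2 of 4 stress-inducible, 5 of 8 inner root sheath, 11 of 12 hair shaft and 27 of 38 Krtap genes, and no ductal, suprabasal or other stratified keratin was among them. Without MEKi replicate 1, however, 3 of 6 ductal and 1 of 4 suprabasal keratins also rose. Without control replicate 4, 46 genes rose and 1 fell. Any fit without that array sets MEKi mice of the upper series against controls of the lower series alone. Treatment and series cannot be told apart in such a fit. The count up was 29 without control replicate 1, 29 without control replicate 2, 30 without control replicate 3, 29 without MEKi replicate 3 and 33 to 51 without MEKi replicate 2 or 1. Within the upper series, which leaves 3 MEKi arrays against control replicate 4, the median FC of the 86 genes was 0.58. With that single control array 0 of all 18193 genes passed, so the fit gives sizes only. In a fit of all 15 arrays with the series as a covariate, 36 rose and 1 fell. Control and CD40 Ab arrays alone inform that covariate, so treatment with MEKi and the series of the mice could be separated only through them.

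The epidermal basal keratins rose in all 3 MEKi tumors. Krt5, the type II keratin of basal keratinocytes, was 7.24, 8.65 and 8.38 in MEKi and 5.09, 4.91, 5.77 and 6.44 in control tumors, with the highest control value in replicate 4. It rose by 2.54 ± 0.43 (adjusted p = 0.00679). Krt15, a keratin of basal cells and of the hair follicle bulge, was 6.28, 6.29 and 6.25 against 4.40, 4.26, 4.68 and 5.07 and rose by 1.67 ± 0.18 (adjusted p = 0.000936). Krt14, the partner of Krt5, was 8.28, 10.54 and 9.83 against 7.25 to 8.01 and rose by 1.75 ± 0.47 (adjusted p = 0.0408). MEKi replicate 1 was the lowest of the 3 for Krt5 and Krt14, and the Krt14 call was lost without any 1 control array (adjusted p 0.0775 to 0.105), without MEKi replicate 2 (0.0879), without MEKi replicate 3 (0.12) and with the series as a covariate (0.155). In combination tumors Krt5 was 5.39, 4.83, 5.10 and 4.79 and Krt15 4.32, 4.38, 4.41 and 4.22, within the range of the controls except that Krt15 replicate 4 and Krt5 replicates 2 and 4 were lower. Against MEKi, Krt5 fell by 3.06 ± 0.32 (adjusted p = 0.00374) and Krt15 by 1.94 ± 0.07 (adjusted p = 4.21e-05), whereas Krt14 differed by -1.65 ± 0.53 (adjusted p = 0.16), with combination replicates 3 and 4 at 8.36 and 8.30, above MEKi replicate 1.

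Krt1, Krt6b and Krt16 were raised in another set of arrays. Krt1, the type II keratin of differentiated epidermis, was 7.54 in CD40 Ab replicate 3, 6.02 and 4.95 in MEKi replicates 2 and 3 and 4.83 in control replicate 3, and it lay between 3.76 and 4.11 in the other 11 arrays. Krt6b, a wound-induced keratin, was 8.26 in CD40 Ab replicate 3, 7.95 and 5.04 in MEKi replicates 2 and 3, 7.64 in control replicate 3 and 3.38 to 3.73 in the other 11 arrays. Krt16, its inducible type I counterpart, was 6.92, 7.61, 6.18 and 6.17 in the same 4 arrays and 4.08 to 4.64 elsewhere. All 3 genes were thus raised in the same 4 arrays, which came from 3 groups, and not in MEKi replicate 1 or control replicate 4. Krt10, the partner of Krt1, was 9.53 in CD40 Ab replicate 3 and 7.29 to 7.87 in the 14 other arrays. The 2 other suprabasal keratins did not share this pattern. Krt77 was 5.88 in MEKi replicate 3 and 3.66 to 4.54 elsewhere, and Krt2 was 3.01 in CD40 Ab replicate 3 and 2.40 to 2.68 elsewhere. The differences between MEKi and control were 0.78 ± 0.43 for Krt1, 0.12 ± 0.09 for Krt10 and 1.47 ± 0.73 for Krt16 (adjusted p = 0.265, 0.419 and 0.219). Without MEKi replicate 1, Krt1 (adjusted p = 0.0341) and Krt16 (0.0455) passed.

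Krt17 and Krt6a, which keratinocytes of the outer root sheath also make, were raised in both sets of arrays. Krt17 was 5.70, 7.26 and 7.37 in MEKi tumors and 5.19 in control replicate 4, 4.02 in control replicate 3 and 4.30 in CD40 Ab replicate 3, and it was 2.94 to 3.21 in the 9 other arrays. It rose by 2.97 ± 0.60 in MEKi against control (adjusted p = 0.0134, and 0.0537 without MEKi replicate 3) and fell by 3.79 ± 0.36 in combination against MEKi (adjusted p = 0.00259). Krt6a rose by 1.09 ± 0.26 (adjusted p = 0.0265) and fell by 1.42 ± 0.20 (adjusted p = 0.013) in the same comparisons. Without control replicate 1, 2 or 4 or MEKi replicate 2 or 3 its rise did not pass (adjusted p 0.0601 to 0.0881), and without MEKi replicate 3 its fall did not (0.0676). With the series as a covariate neither the rise of Krt6a (0.84, adjusted p = 0.114) nor its fall (-1.09, 0.15) passed. A second Krt6a probe set spread more widely, at 8.03, 9.70 and 9.34 in MEKi, 7.82 and 7.03 in control replicates 3 and 4, 7.96 in CD40 Ab replicate 3 and 3.85 to 4.11 in the other 9 arrays. That probe set differed by 3.35 in MEKi against control (adjusted p = 0.0582) and fell by 5.08 in combination against MEKi (adjusted p = 0.000517).

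**Figure D3:**
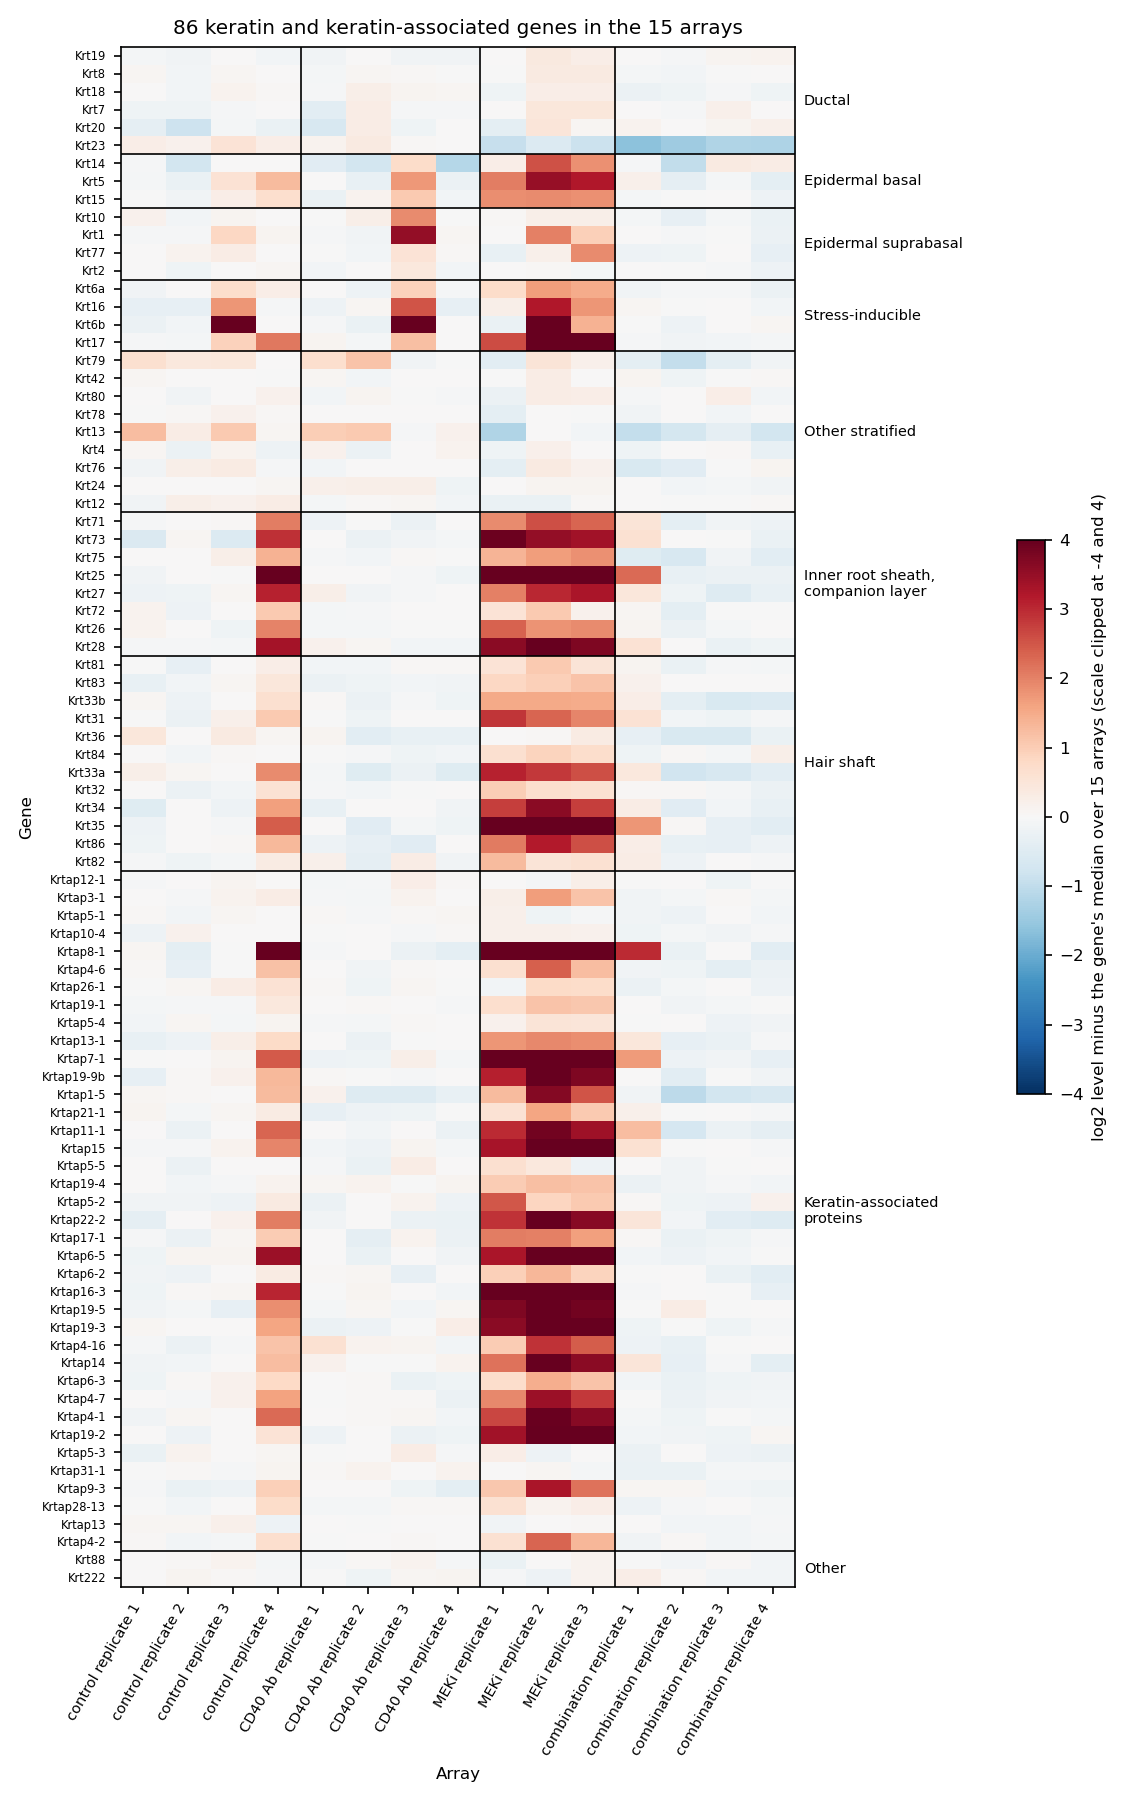
Log2 level of each of the 86 genes (rows, by class) in each of the 15 arrays (columns, by group), shown as the difference from the gene's median over the arrays, in red for higher and blue for lower. Hair follicle genes are raised in the 3 MEKi arrays and in control replicate 4, and Krt6b, Krt16 and Krt1 in CD40 Ab replicate 3, MEKi replicates 2 and 3 and control replicate 3.

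Inner root sheath keratins were high in the MEKi tumors and in control replicate 4. Krt25, a type I keratin of the inner root sheath, was 9.23, 9.47 and 9.47 in MEKi tumors, 8.63 in control replicate 4 and 5.33 in combination replicate 1, and it was 2.77 to 3.09 in the other 10 arrays. It rose by 4.96 ± 1.30 in MEKi against control (adjusted p = 0.0363) and by 6.36 without control replicate 4 (adjusted p = 1.87e-06). Krt28 was 6.48, 6.84 and 6.61 in MEKi and 6.20 in control replicate 4 and 2.59 to 3.46 elsewhere, and it rose by 2.99 ± 0.79 (adjusted p = 0.0376). Krt73, a type II keratin of the sheath, was 8.10, 7.69 and 7.56 in MEKi and 7.10 in control replicate 4, with 3.61 to 4.81 elsewhere, and rose by 3.13 ± 0.78 (adjusted p = 0.0299). Krt71, which pairs with these type I keratins, was 7.09, 7.77 and 7.54 in MEKi, overlapping 7.25 in control replicate 4, and rose by 1.76 ± 0.50 (adjusted p = 0.0473). Krt27 was 5.97, 6.99 and 7.23 in MEKi and 7.05 in control replicate 4, a difference of 2.06 ± 0.78 (adjusted p = 0.116, and 0.00239 without control replicate 4). These calls depended on single arrays and on the series of the mice. Krt25, Krt28, Krt71 and Krt73 did not pass without control replicate 1, 2 or 3 or MEKi replicate 2 or 3 (adjusted p 0.063 to 0.12), nor did Krt25, Krt28 and Krt73 without MEKi replicate 1 (0.0547 to 0.0564). They also did not pass with array weights (0.0619 to 0.0672) or a trended robust prior (0.0506 to 0.0731). With the series as a covariate, Krt25 (3.21, adjusted p = 0.0857), Krt28 (2.00, 0.0635) and Krt71 (1.09, 0.114) did not pass. Without control replicate 4 larger rises were seen for Krt28 (3.83, adjusted p = 3.87e-05), Krt73 (3.94, 0.000238) and Krt71 (2.27, 0.000631). The fits without that array leave controls of the lower series only, so treatment and series cannot be told apart in them. Of the 8 inner root sheath genes, 0 rose without MEKi replicate 3, 2 without MEKi replicate 1 and 7 without control replicate 4. Within the upper series, the differences between MEKi tumors and control replicate 4 were 0.76 for Krt25, 0.68 for Krt73 and 0.44 for Krt28. They were 0.22 for Krt71 and -0.32 for Krt27.

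All 8 inner root sheath genes had the 3 MEKi arrays and control replicate 4 above the other 11 arrays. The same order held for 10 of 12 hair shaft and 30 of 38 Krtap genes, but for 0 of 6 ductal and 1 of 4 stress-inducible genes. These 4 arrays were picked after the values were seen, and the share of all genes with that order was not computed. Within the 4 arrays, however, the classes differed in where control replicate 4 lay. It lay below all 3 MEKi arrays in 3 of 8 inner root sheath, 11 of 12 hair shaft and 25 of 38 Krtap genes. The class level of the inner root sheath was 6.56 in control replicate 4 and 6.76 ± 0.13 (SD, n = 3) in MEKi tumors, that of the hair shaft 5.64 and 6.52 ± 0.11, and that of Krtap 4.75 and 5.77 ± 0.38, given here as a description with no test.

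Of the hair shaft keratins, 11 of 12 rose in MEKi tumors. Krt35, the type I keratin made first in the hair cortex and cuticle, was 8.82, 7.36 and 7.65 in MEKi tumors, 5.56 in control replicate 4, 4.90 in combination replicate 1 and 2.68 to 3.18 in the other 10 arrays. It rose by 4.26 ± 0.65 (adjusted p = 0.00433). Krt34 rose by 2.80 ± 0.48 (adjusted p = 0.00682), Krt86 by 2.31 ± 0.38 (adjusted p = 0.00589) and Krt33a by 2.28 ± 0.43 (adjusted p = 0.0103), all keratins of the hair cortex. Krt31, a cortex keratin, was 7.99, 7.46 and 7.07 in MEKi and 5.12, 4.91, 5.32 and 6.17 in control tumors and rose by 2.13 ± 0.32 (adjusted p = 0.00382). Krt81 rose by 0.73 ± 0.17 (adjusted p = 0.0242), from 6.44 to 7.05 in control to 7.30 to 7.82, although not without control replicate 1, 2 or 3 or MEKi replicate 2 (adjusted p 0.0534 to 0.0654). The 1 hair shaft keratin that did not rise was Krt36 (log2 FC -0.08, adjusted p = 0.716). Its level in MEKi tumors was 5.64 to 5.95. Within the upper series, Krt35 differed by 2.38 and Krt31 by 1.34 from control replicate 4, and neither passed with that single control array.

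Among Krtap genes, Krtap16-3 and Krtap8-1, which encode proteins rich in glycine and tyrosine, rose most. Krtap16-3 was 7.63, 8.40 and 8.37 in MEKi tumors, 5.40 in control replicate 4 and 2.02 to 2.45 in the other 11 arrays, and it rose by 5.04 ± 0.73 (adjusted p = 0.00354). Krtap8-1 was 9.72, 10.35 and 9.56 in MEKi, 8.15 in control replicate 4, 6.97 in combination replicate 1 and 3.55 to 4.05 elsewhere, and it rose by 4.94 ± 1.01 (adjusted p = 0.0141), or by 6.01 without control replicate 4 (adjusted p = 7.36e-05). The third was Krtap19-3, at 6.33, 7.62 and 7.15 in MEKi, 4.29 in control replicate 4 and 2.48 to 2.96 elsewhere, with a rise by 3.91 ± 0.44 (adjusted p = 0.00122). Krtap6-2 was 4.47, 4.84 and 4.42 against 3.33 to 3.84 and rose by 1.06 ± 0.15 (adjusted p = 0.00314), and Krtap3-1 differed by 0.92 ± 0.29 (adjusted p = 0.0687) with MEKi replicate 1 at 6.03, within the controls' 5.74 to 6.11. Krtap3-1 passed only in the fit of all 15 arrays (adjusted p = 0.00862), with array weights (0.0095) and without MEKi replicate 1 (1.31, 0.00137). MEKi replicate 2 held the highest of the 15 values in 29 of 38 Krtap genes and MEKi replicate 1 in 4, whereas for the hair shaft MEKi replicate 1 held 6 of 12 highest values and MEKi replicate 2 held 4.

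Krtap genes lie in clusters, and the RefSeq table (GRCm38.p6) placed 20 of them on chromosome 16, 10 on chromosome 11, 5 on chromosome 7, 2 on chromosome 10 and 1 on chromosome 1. In MEKi against control tumors 18 of 20 rose on chromosome 16, 7 of 10 on chromosome 11, 2 of 5 on chromosome 7 and 0 of 3 on chromosomes 10 and 1. Of all genes, 10.7% rose in that comparison, and the counts on chromosomes 7, 10 and 1 are too small to set against that share. The 2 on chromosome 16 that did not pass were Krtap13 (log2 FC -0.07, adjusted p = 0.724) and Krtap26-1 (0.23, adjusted p = 0.554). Near-identical copies within these clusters may share probes, and 7 further probe sets that name a keratin or Krtap gene beside others were left out for that reason.

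**Figure D4:**
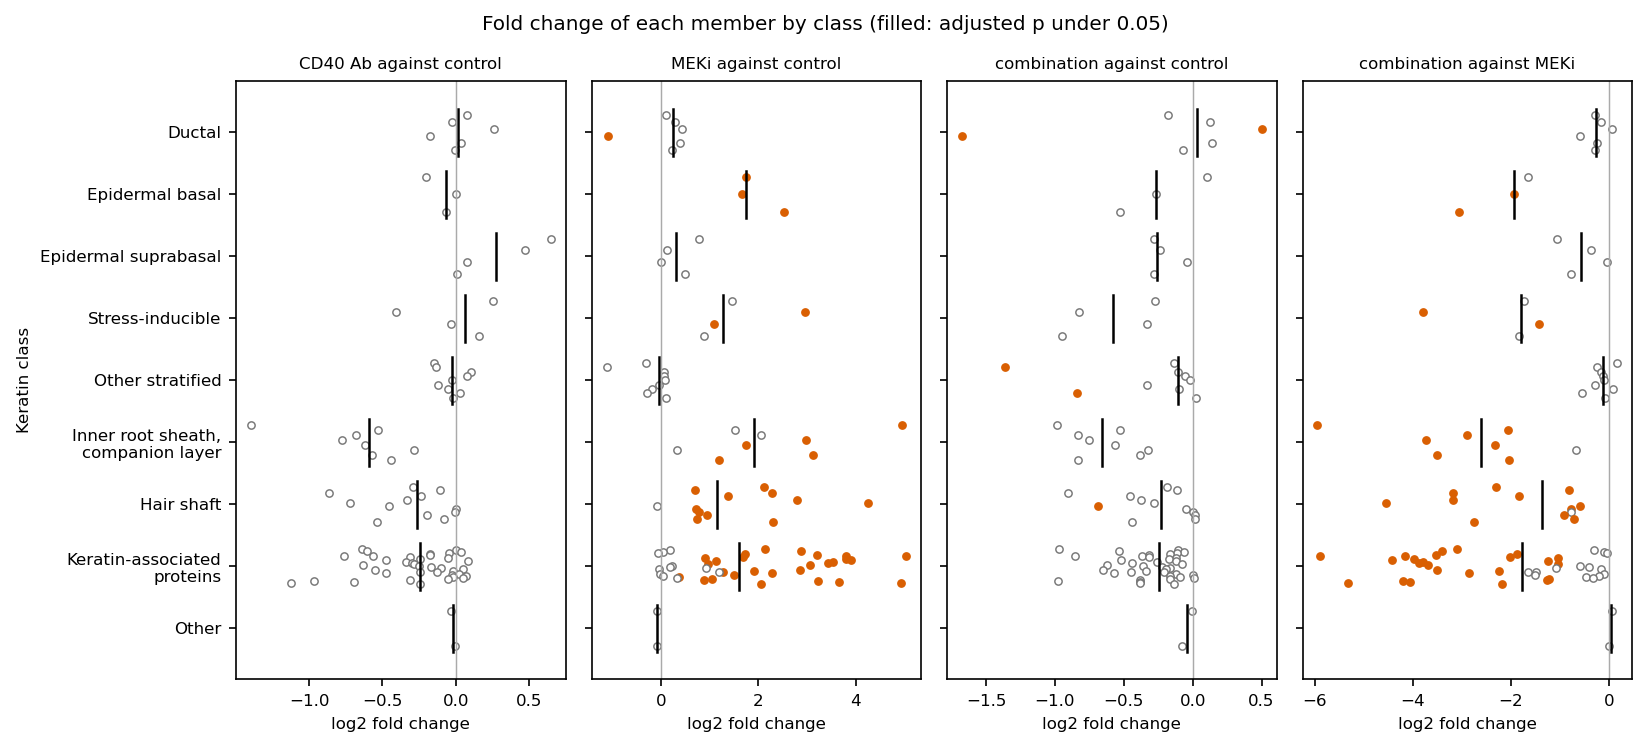
Log2 fold change (x axes, which differ in scale between panels) of each member by keratin class in 4 comparisons, with filled points for adjusted p under 0.05 and a black bar for the class median. The filled points of MEKi against control number 49, 48 of them above 0, and those of combination against MEKi number 46, all below 0.

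In combination against MEKi tumors, 46 of the 86 genes fell and 0 rose, where 2.65% of all genes fell and 1.38% rose. In 59 genes every combination array lay below every MEKi array, against 10.8% of all genes. The genes that fell were 7 of 8 inner root sheath, 11 of 12 hair shaft, 24 of 38 Krtap, 2 of 3 epidermal basal and 2 of 4 stress-inducible genes, and 0 of 6 ductal keratins. Krt25 fell by 5.95 ± 0.59 (adjusted p = 0.00309), Krtap16-3 by 5.89 ± 0.19 (adjusted p = 2.96e-05), Krtap8-1 by 5.32 ± 0.78 (adjusted p = 0.0143), Krt35 by 4.54 ± 0.56 (adjusted p = 0.00731) and Krtap19-3 by 4.43 ± 0.26 (adjusted p = 0.000313). The Krtap8-1 call was lost without MEKi replicate 3 (adjusted p = 0.0626) or combination replicate 2 (0.0535). The comparison shares its MEKi arrays with the one before. All MEKi mice were of the upper and all combination mice of the lower series, so no comparison within a series could be made. With the series as a covariate in the fit of all 15 arrays, 28 genes fell, and Krt5 (-2.04, adjusted p = 0.0894), Krt25 (-3.61, 0.174) and Krtap8-1 (-3.65, 0.152) did not pass.

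Combination replicate 1 was not at the level of the other 3 combination arrays in part of the hair follicle genes. In 33 of the 58 hair follicle genes, which are the inner root sheath, hair shaft and Krtap genes together, it was the highest of the 4, and in 5 it exceeded the next by over 1 on the log2 scale. The 33 were 7 of 8 inner root sheath, 9 of 12 hair shaft and 17 of 38 Krtap genes. The share over all genes was not computed. Krt25 was 5.33 against 2.77, 2.83 and 2.84, Krt35 4.90 against 3.18, 2.80 and 2.73, and Krtap8-1 6.97 against 3.72, 3.98 and 3.55. Krtap16-3 was 2.28, within the other combination arrays at 2.02 to 2.34. Without combination replicate 1, 41 of the 86 genes fell against MEKi, 37 of them hair follicle genes.

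CD40 Ab against control gave 0 calls among the 86 genes in limma's moderated test, where 1.01% of all genes rose and 0.0495% fell. At an unadjusted p under 0.05 there were 4 (Krt33a, Krt36, Krtap1-5 and Krtap21-1, named after their values were seen), all lower. This was 4.65% of the members, where 11.5% of all genes lay under that p and 4.58% did so with a lower level. Control replicate 4 was the highest control in Krt33a and Krtap1-5, whose differences of -0.86 and -0.64 were -0.42 and -0.33 without it. The unadjusted p of that test then went from 0.0398 to 0.00568 for Krt33a and from 0.0439 to 0.0646 for Krtap1-5. Krt36 went from -0.455 to -0.50 and Krtap21-1 from -0.29 to -0.21, and none of the 4 passed after adjustment (adjusted p 0.248 to 0.605). The differences ranged from -1.40 (Krt25, 95% interval -3.86 to 1.07) to 0.65 (Krt1, -0.97 to 2.26), and both rested on single arrays. Krt25 was 2.92 to 3.09 in all CD40 Ab tumors, so its difference came from control replicate 4 and was 0.0058 without it. Krt1 differed by -0.25 without CD40 Ab replicate 3. CD40 Ab replicates 3 and 4 came from the upper series, and neither had raised hair follicle genes, with a mean level of the 58 genes of 3.90 and 3.86 compared with 5.19 in control replicate 4 and 5.81 to 6.34 in MEKi tumors.

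The interaction asks whether CD40 Ab changed a gene differently with MEKi than without it. Its part with MEKi sets combination mice, all of the lower series, against MEKi mice, all of the upper. Antibody and series cannot be told apart in that part. Of the 86 genes, 31 had a lower and 0 a higher value with MEKi, where 2.56% and 2% of all genes did. These were 18 Krtap, 9 hair shaft, 2 epidermal basal, 1 stress-inducible and 1 inner root sheath gene. The lowest values were those of Krtap16-3 (-5.13 ± 0.76, adjusted p = 0.00281), Krtap19-3 (-3.96 ± 0.46, adjusted p = 0.000882), Krt35 (-3.82 ± 0.83, adjusted p = 0.0239), Krtap19-2 (-3.73 ± 0.26, adjusted p = 1.28e-05) and Krtap15 (-3.60 ± 0.62, adjusted p = 0.00715). Krt35 did not pass without control replicate 1 (adjusted p = 0.0517), control replicate 2 (0.0568) or combination replicate 4 (0.0503). Krt5 had a value of -2.995 (adjusted p = 0.0233), which did not pass without control replicate 1 (0.0514), control replicate 2 (0.0551) or MEKi replicate 3 (0.0633). Krt25 had a value of -4.55 ± 1.46 (adjusted p = 0.112), which was -5.95 without control replicate 4 (adjusted p = 0.000368), and 7 of 8 inner root sheath genes then passed. No ductal keratin passed, and Krt23 had a value of -0.42 (95% interval -0.81 to -0.04, adjusted p = 0.229). With the series as a covariate 4 genes passed, and Krtap16-3 (adjusted p = 0.113), Krtap15 (0.199), Krt35 (0.36), Krt5 (0.376), Krt15 (0.203) and Krt17 (0.307) did not.

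**Figure D5:**
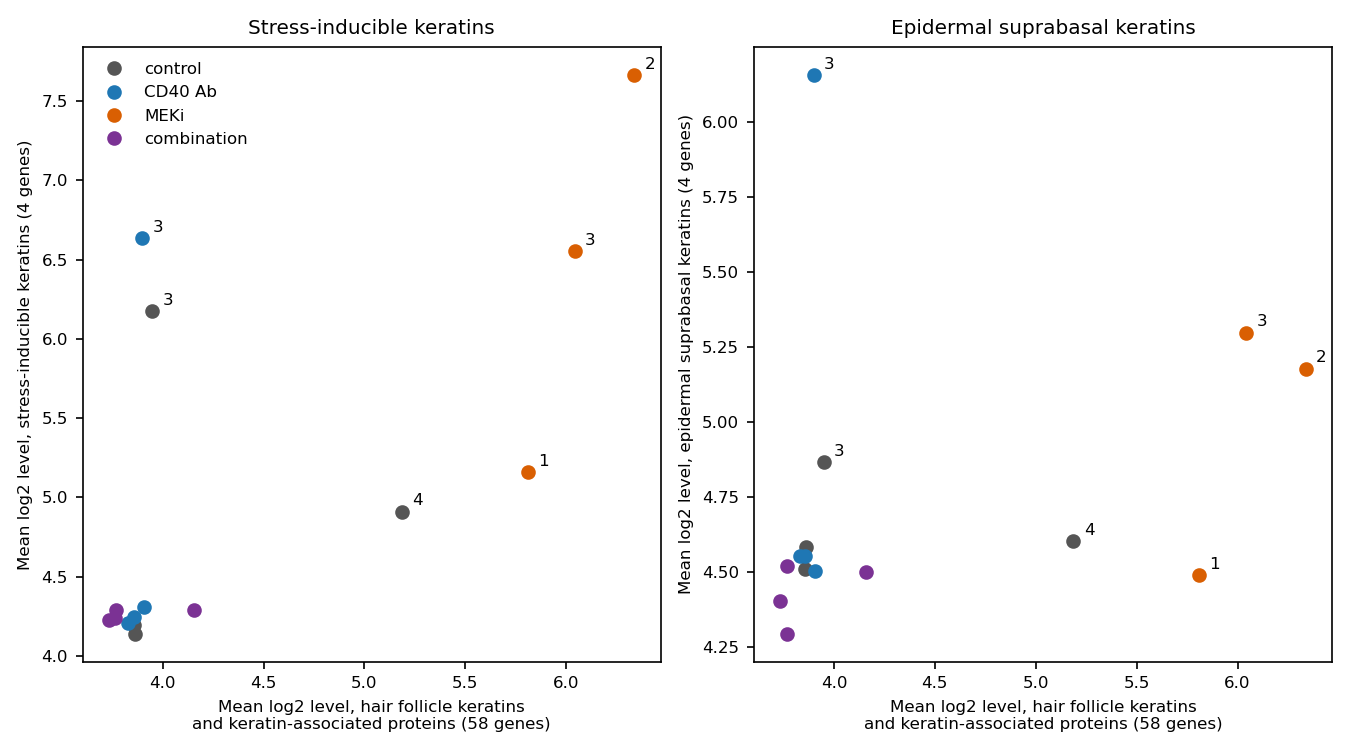
Mean log2 level of the 58 hair follicle keratin and Krtap genes (x axes) against that of the 4 stress-inducible (left) and 4 suprabasal (right) keratins (y axes), 1 point per array, coloured by group and numbered where either level is raised. Control replicate 4 and MEKi replicate 1 have raised hair follicle levels (5.19 and 5.81) with suprabasal levels of 4.60 and 4.49, and CD40 Ab replicate 3 has a suprabasal level of 6.16 with a hair follicle level of 3.90.

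Of 18 hair follicle genes other than keratins, 9 rose and 1 fell in MEKi against control tumors (median log2 FC 0.78), and 9 fell in combination against MEKi. Of all genes, 10.7% rose and 10.4% fell in the first comparison, and 2.65% fell in the second. Tchh, encoding trichohyalin of the inner root sheath, was 8.31, 8.06 and 7.82 in MEKi, 7.51 in control replicate 4, 5.11 in combination replicate 1 and 3.20 to 3.67 in the other 10 arrays. Hoxc13, a regulator of hair keratin genes, was 7.53, 5.17 and 6.71 in MEKi and 4.63 in control replicate 4, with 4.10 to 4.45 elsewhere. Shh, made by the growing hair matrix, was 6.83, 5.29 and 4.88 in MEKi and 3.48 in control replicate 4, the lowest of all arrays. Control replicate 4 thus had Tchh near the MEKi level and Shh at the level of the other tumors. The defining marker Foxn1 was 3.66 to 4.30 in every array.

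Of 12 epidermal genes other than keratins, 6 rose in MEKi against control (median 0.67) and 7 fell in combination against MEKi, where 10.7% of all genes rose and 2.65% fell. Flg, encoding filaggrin of the outer epidermis, was 4.52 in CD40 Ab replicate 3, 3.30 in control replicate 3 and 2.11 to 2.66 elsewhere, and Lor was 6.71 in CD40 Ab replicate 3 and 4.72 to 5.65 elsewhere. Trp63, a marker fixed for basal keratinocytes beside Krt5, Krt14 and Krt15, was 6.97, 7.21 and 7.09 in MEKi tumors. It was 5.28, 5.33, 4.89 and 5.37 in combination and 4.35, 4.20, 4.47 and 5.54 in control tumors, with 3.94 to 5.15 in CD40 Ab tumors. Of 7 melanocyte genes 2 rose in MEKi tumors, with list levels of 4.60 to 4.76 in MEKi, 4.38 in control replicate 4 and 3.91 to 4.13 in the others. The 12 skeletal muscle genes had list levels of 7.82 to 10.81 in MEKi, 8.21 to 9.87 in combination, 4.69 to 7.22 in control and 4.62 to 6.64 in CD40 Ab tumors. Of these, 2 passed in MEKi and 11 in combination against control tumors, with near-equal median log2 FC of 2.46 and 2.68. Of all genes, 10.7% and 10.3% rose in these comparisons. The medians of the 58 hair follicle keratin and Krtap genes in these comparisons were 1.61 and -0.32. Of 6 sebaceous gland genes 1 rose in MEKi tumors, where 10.7% of all genes rose, so this count says little about the list. Of 14 desmosome and hemidesmosome genes that anchor keratins, 5 rose in MEKi against control, with list levels of 8.48 to 8.88 against 8.08 to 8.33. Of 10 epithelial tumor cell genes, 5 rose and 1 fell, with list levels of 7.87 to 8.33 against 6.70 to 7.41. The part of skin, hair follicle or muscle tissue in the tumor pieces in these keratin results was not tested.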

How the data were processed

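RNA of 15 tumor pieces, 1 per mouse, was hybridized to Affymetrix mouse expression arrays after 3' IVT labelling. The authors deposited 1 log2 signal for each probe set and array, made by robust multi-array average (RMA, named in the submitters' processing notes), with background correction, quantile normalization and summarization. Quantile normalization can hide shifts shared by most genes, and signals of dim probe sets are compressed towards the background. Scanner files were not used here. Of 45101 probe sets, 64 controls were left out.

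Groups were compared by limma 3.58.1 (R 4.3.3) with lmFit and eBayes, as two-sided tests within the pair of groups compared. The p-values of all 45037 probe sets were adjusted together (Benjamini-Hochberg, threshold 0.05). The interaction, combination minus MEKi less CD40 Ab minus control, used all 15 arrays. Each array is 1 tumor, and the number of arrays limits the precision. Class levels are means over genes and were not tested. Members, classes and lists were chosen with earlier results of these data known. The genes named were 29 keratin and Krtap genes whatever their values, the 5 passing members with the largest rise and fall in each comparison, and genes that illustrate single arrays, which were chosen after their values were seen.

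Replicate numbers did not pair the arrays: deviations of same-numbered arrays correlated at -0.278 to 0.207. Alternatives were a fit of all arrays, a trended robust prior, array weights, median centring, a second quantile normalization, omission of dim or cross-matching probe sets, the mean of a gene's probe sets, the replicate number as a block, the animal number series, and leaving out each array. The fits were checked on simulated data. Promoters are from the RefSeq table of GRCm38.p6.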

Additional observations from a re-analysis of the deposited data

Results flagged for a closer look

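The gap between the highest or lowest array and its neighbour, as a share of the group's range, exceeded Dixon's 95% critical value in 29 of 114 groups of 4 arrays examined for 9 classes and 29 named genes. Chance gives about 1 in 20, and members of a class share arrays. Control replicate 4 accounted for 12 of these, CD40 Ab replicate 3 for 8 and combination replicate 1 for 6.

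Control replicate 4 stood above the other controls in the class levels of the inner root sheath (6.56), hair shaft (5.64) and Krtap genes (4.75), and in Krt25 (8.63), Krt27 (7.05), Krt28 (6.20), Krt71 (7.25), Krt33a (6.33), Krt35 (5.56), Krt86 (4.95), Krtap8-1 (8.15) and Krtap16-3 (5.40). CD40 Ab replicate 3 stood above its group in the basal (7.03), suprabasal (6.16) and stress-inducible (6.64) class levels and in Krt1 (7.54), Krt5 (6.91), Krt10 (9.53), Krt16 (6.92) and Krt17 (4.30). Combination replicate 1 did so in the class levels of the inner root sheath (4.41), hair shaft (5.06) and Krtap genes (3.82) and in Krt25 (5.33), Krt31 (5.70) and Krtap8-1 (6.97). Control replicate 3 was high in Krt16 (6.17), control replicate 2 low in Krt14 (7.25) and CD40 Ab replicate 2 high in Krt19 (13.21).

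The interaction term passed in Krtap16-3 (-5.13), Krt35 (-3.82), Krt17 (-3.38), Krt5 (-2.995), Krt34 (-2.85), Krt33a (-2.32), Krt86 (-2.21), Krt31 (-2.02), Krt15 (-1.95), Krtap6-2 (-1.17) and Krt81 (-0.78). With MEKi, the antibody groups also differed in series, so these calls do not separate the effect of CD40 Ab from the series of the mice. The calls of Krtap16-3, Krt35, Krt17, Krt5 and Krt15 were lost with the series as a covariate (adjusted p 0.113 to 0.376). The other calls listed here were not followed singly in that fit, in which only 4 of the 86 genes passed.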

How the results depend on the processing

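Of 76 fold changes of named genes under 1415 alternative settings, 1258 kept their direction and side of the threshold, 132 lost and 19 gained the call, and 6 changed sign. Those with a changed sign were Krt10 in MEKi against control with the series as a covariate (-0.22), Krt27 there within the upper series (-0.32), and, in CD40 Ab against control, Krt1 and Krt25 within the lower series (-0.35 and 0.058) and on leaving out single arrays (-0.25 to 0.98 and -1.89 to 0.0058). Comparisons within a series were chosen after seeing the data, and the lone control of the upper series is assumed to vary like the MEKi arrays. The count of members called in MEKi against control, 49, was 30 without dim probe sets, which leaves 55 members, 0 within the upper series and 30 to 52 on leaving out single arrays. That in combination against MEKi, 46, was 30 without dim probe sets and 28 with the series as a covariate. The interaction count, 31, was 4 with that covariate. Combination against CD40 Ab gave 1 to 3 on leaving out single arrays. With the replicate block, the counts were 8 in combination against control, 18 in combination against MEKi and 1 in combination against CD40 Ab, and the labels do not say that these numbers pair the mice. The other counts stayed within 1.5 times, and no class difference moved by over 1 SD with the mean of all probe sets. Except where stated, the cause was not tested. Signals near the array background limit the dim Krtap genes.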
